A study of Mus musculus with 6 samples.

Results

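Bone morphogenetic protein (BMP) signalling and its best known transcriptional targets, the inhibitor of DNA binding (ID) genes, were followed in mouse NIH3T3 fibroblasts made to overexpress γ-glutamylcyclotransferase (GGCT), an enzyme of glutathione metabolism. The 10 genes were Bmp4, Grem1, Bmpr1a, Bmpr2, Smad6, Smad9, Id1, Id2, Id3 and Id4, taken by the RefSeq accession that the array gives each probe. They were read by 12 probes of the 56570 measured on all arrays, and made up 10 of 44953 genes and unnamed transcripts. The comparison was between 2 groups of 3 arrays. GGCT-OE cells carried a retroviral pCX4bsr vector expressing GGCT, and empty cells carried the control vector. Cells of both groups were NIH3T3, an established mouse embryonic fibroblast line, and both were grown in medium with 2% fetal bovine serum. A single establishment of the stable cells is described, and the species of the GGCT coding sequence is not stated. The 3 replicates are labelled as independent experiments, and the p-values below reflect how far those experiments differ from each other. They do not cover differences between separately established cells. The series title names the glioblastoma stem cell work to which these fibroblasts belong, and its stated purpose for them is the effect of excess GGCT on gene expression.

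BMP ligands bind a complex of type I and type II receptors, whose kinases phosphorylate SMAD1, SMAD5 and SMAD9. These receptor-activated SMADs join SMAD4, enter the nucleus and switch on target genes, among which ID genes and the inhibitory SMADs are widely used as readouts. ID proteins lack a DNA-binding region and hold basic helix-loop-helix (bHLH) transcription factors away from their sites, which in many lineages, fibroblasts and mesenchymal progenitors among them, favours proliferation over differentiation.

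The promoters of 5 of the 6 lower genes are shown first, because BMP-activated SMADs are known to bind the motif GGCGCC in ID promoters. RefSeq's promoter table for GRCm38.p6 held 9 of the 10 genes, all but Id1, and each sequence below is the 250 bases before the gene's start, 5′ to 3′ on the gene's strand, with GGCGCC in capitals. The regions are chr12:25096093-25096342 on the minus strand for Id2, chr4:136143572-136143821 on the plus strand for Id3, chr13:48260866-48261115 on the plus strand for Id4, chr9:64022060-64022309 on the minus strand for Smad6 and chr3:54755332-54755581 on the plus strand for Smad9. Of the other genes, Id1 and Grem1 lie on chromosome 2, Bmp4 and Bmpr1a on chromosome 14 and Bmpr2 on chromosome 1.
Id2: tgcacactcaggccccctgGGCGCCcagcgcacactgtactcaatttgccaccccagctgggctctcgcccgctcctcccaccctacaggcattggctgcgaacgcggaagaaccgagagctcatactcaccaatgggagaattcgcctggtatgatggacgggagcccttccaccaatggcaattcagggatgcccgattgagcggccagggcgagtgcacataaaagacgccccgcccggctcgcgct
Id3: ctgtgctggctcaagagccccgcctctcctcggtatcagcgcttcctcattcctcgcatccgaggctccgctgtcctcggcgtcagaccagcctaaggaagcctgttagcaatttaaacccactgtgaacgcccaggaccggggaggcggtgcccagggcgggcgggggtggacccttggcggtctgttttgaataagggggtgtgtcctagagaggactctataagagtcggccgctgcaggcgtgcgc
Id4: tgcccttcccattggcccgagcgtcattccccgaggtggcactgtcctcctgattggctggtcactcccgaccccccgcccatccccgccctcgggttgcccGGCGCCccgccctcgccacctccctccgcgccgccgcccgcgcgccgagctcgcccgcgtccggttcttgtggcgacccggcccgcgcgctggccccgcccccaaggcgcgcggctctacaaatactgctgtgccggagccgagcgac
Smad6: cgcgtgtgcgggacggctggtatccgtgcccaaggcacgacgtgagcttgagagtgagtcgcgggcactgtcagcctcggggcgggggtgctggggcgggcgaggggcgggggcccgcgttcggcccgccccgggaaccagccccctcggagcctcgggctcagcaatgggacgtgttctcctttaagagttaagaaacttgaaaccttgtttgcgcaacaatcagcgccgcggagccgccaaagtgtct
Smad9: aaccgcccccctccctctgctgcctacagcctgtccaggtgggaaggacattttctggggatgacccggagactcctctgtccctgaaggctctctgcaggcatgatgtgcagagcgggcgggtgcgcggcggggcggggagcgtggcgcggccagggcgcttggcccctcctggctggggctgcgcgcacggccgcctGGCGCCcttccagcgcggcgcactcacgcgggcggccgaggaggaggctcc

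GGCGCC reads the same on both strands, and it was present in Id2, Id4 and Smad9 but not in Id3 or Smad6. Outside the sequences shown it was also present in Grem1, Bmpr1a and Bmpr2 and not in Bmp4, so that 6 of the 9 windows held it, against 9.59% of 32851 promoters in the table. The 9 windows were also rich in G and C, at 62.8% to 78.8%, against a median of 52.4% over all promoters. The general SMAD motif, GTCTG or CAGAC for the 2 strands, was found in Id3 and Grem1, and in 42.2% of all promoters. The bHLH motif CANNTG, its own complement on the other strand, was found in Bmp4, Smad9 and Id2, and in 66.2% of all promoters. None of these matches overlapped another, and each describes letters in the window and not a bound site.

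Each array held 62976 spots, and 54.6% to 61.7% of probes were well above background, with no spot saturated. The array's mouse Ggct probe, which may or may not read the introduced sequence, read -0.14, 0.20 and -0.16 in GGCT-OE cells, against -0.57, -0.72 and -0.66 in empty cells, a difference of 0.62 ± 0.12 (SE) with a limma adjusted p of 0.0111. Values here and below are log2 signal relative to the array's 75th percentile, listed for replicates 1, 2 and 3 in that order, and differences are GGCT-OE minus empty. Slide 1 held replicate 1 of each group, and slide 2 held the others. All 10 fibroblast markers were above background on all arrays, while Epcam, Cdh1, Ptprc, Kdr, Tek, Adipoq, Fabp4, Plin1, Myog, Ckm, Actn2, Ibsp, Dmp1 and Acan were on none. Other markers of those lists were detected. Each array had 3 of 4 haematopoietic, 2 or 3 of 5 epithelial and 2 or 3 of 5 osteoblast markers above background. Each also had 1 or 2 of 4 endothelial, 1 or 2 of 4 chondrocyte and 1 of 4 adipocyte markers. Of 4 skeletal muscle markers, 1 was above background, on GGCT-OE replicate 1 alone.

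All 4 ID genes and the SMAD genes Smad6 and Smad9 fell in GGCT-OE cells. The largest measured difference was that of Id4, whose signal was at least 34.5-fold lower because it was not above background in any GGCT-OE array. Id1 was 3.55-fold lower, Id2 2.34-fold lower and Id3 1.67-fold lower, and Smad6 was 1.87-fold lower. Smad9 was 6.41-fold lower, a value that rests on signals of which 1 of 3 in GGCT-OE cells was above background, and normexp background correction gave a smaller difference. Of the 8 genes tested none passed as higher, and the receptors Bmpr1a and Bmpr2 did not pass, although Bmpr1a passed as higher with the replicate number as a block (limma adjusted p = 0.0241). In bulk RNA, fewer cells expressing a gene and less of its RNA per cell cannot be told apart.

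A gene entered the test when its brightest probe cleared the scanner's background flag on every array of GGCT-OE, of empty or of both, and it was called at a Benjamini-Hochberg adjusted p under 0.05 over the 23884 genes tested. Of the 10 genes 8 were tested, and 6 of the 8 were lower, against 17.3% of all genes tested. Those include unnamed transcripts, and of the 14026 named genes tested 22.0% were lower. Calls were common in this comparison, with 34.8% of all genes passing in either direction. The groups did not overlap, with GGCT-OE the lower, for the same 6 genes, against 23.9% of all genes. Fitted over single probes, 6 of 9 tested probes were lower, against 17.5% of 31110 probes lower, 17.7% higher and 35.2% in either direction. The same 6 probes did not overlap, against 24.2% of probes with GGCT-OE the lower. Each of the 6 lower genes was read by 1 probe only, so these probe counts repeat the gene counts and add no further evidence. Id4 and Smad9 passed the filter only through the empty arrays, where they were high. Among genes above background on all 6 arrays, where those 2 are not tested, 4 of the 6 remaining were lower (Id1, Id2, Id3 and Smad6), against 16.7% of such genes. The smallest p that an exact permutation test can give for 3 against 3 arrays is 0.1, and it gave 0.1 for each of the 6.

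**Figure D1:**
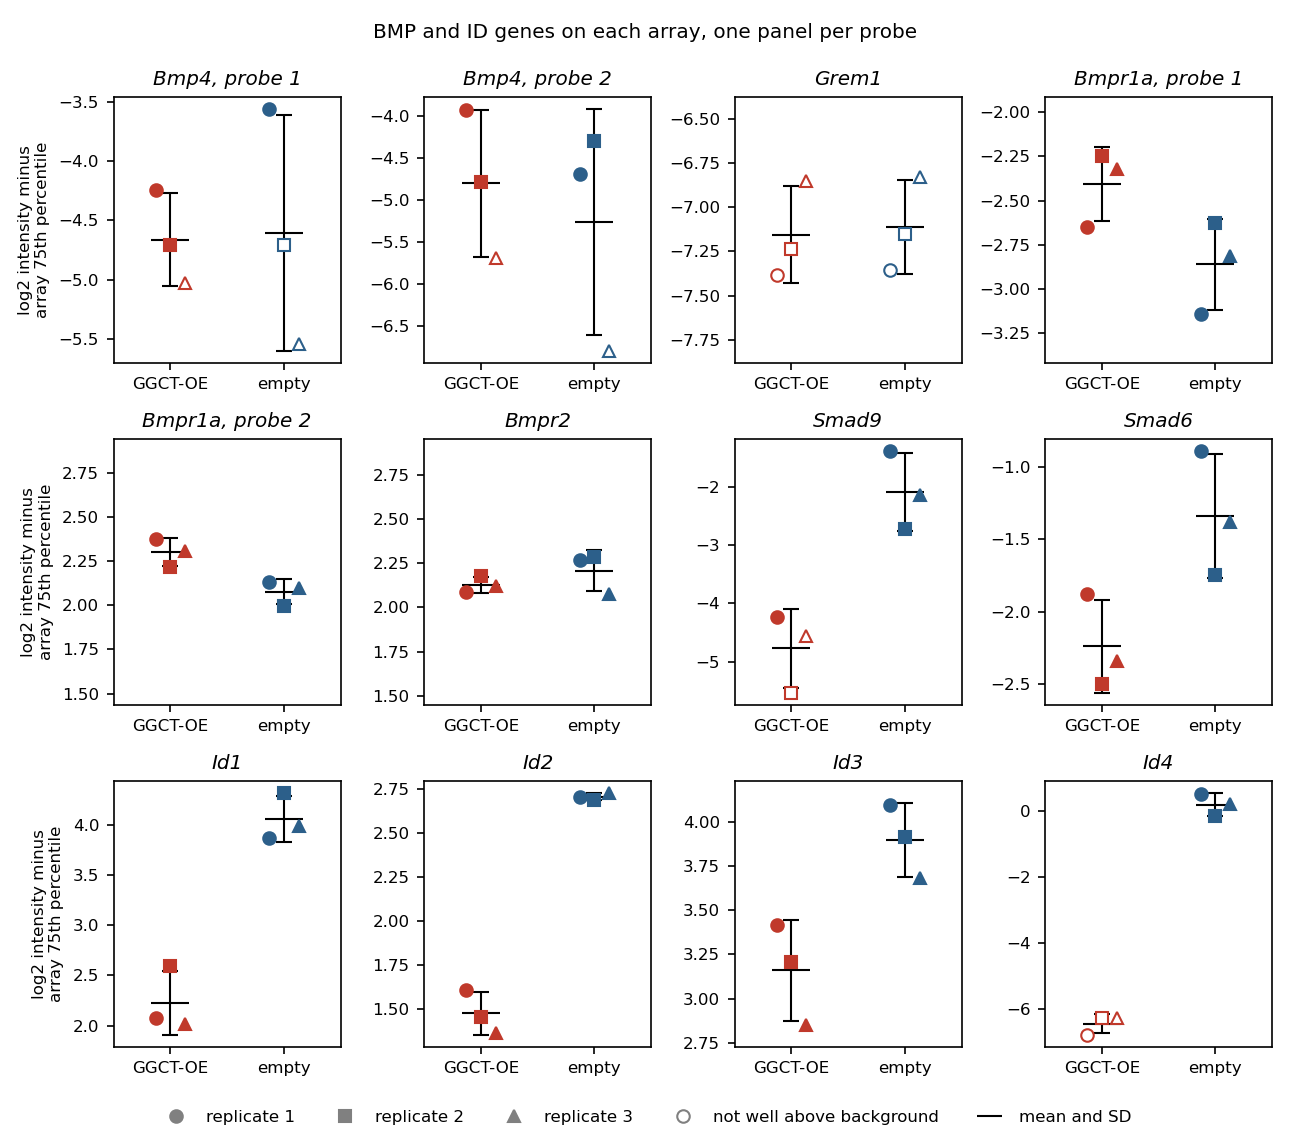
Log2 signal relative to the array's 75th percentile for each of the 12 probes, with a point per array, GGCT-OE left of empty, and bars for each group's mean and SD; each panel has its own scale, open points were not well above background, and the second Bmpr1a panel is its brighter probe. The Id1, Id2, Id3, Id4, Smad6 and Smad9 panels have no overlap between groups, and the Bmp4 and Grem1 panels do.

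Id4, the ID gene best known in neural and bone progenitors, read -6.78, -6.28 and -6.29 in GGCT-OE cells, against 0.52, -0.17 and 0.21 in empty cells. It was above background on 0 of 3 GGCT-OE arrays and on 3 of 3 empty arrays, and every GGCT-OE array lay below the lowest signal counted as above background. The fitted difference of -6.64 (adjusted p = 2.71e-05) is therefore set by the background, and under normexp background correction it was -3.11. The direction was the same on slide 1 and slide 2, at -7.30 and -6.31.

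Id1, the ID gene most used as a readout of BMP-SMAD signalling, read 2.08, 2.59 and 2.01 in GGCT-OE cells, against 3.87, 4.31 and 3.98 in empty cells. The highest GGCT-OE array was more than a log2 unit under the lowest empty array. Its means were 2.23 ± 0.32 and 4.05 ± 0.23 (SD, n = 3 arrays each), and the difference of -1.83 ± 0.19 (SE) had a limma adjusted p of 0.00126. Both slides gave nearly the same difference, at -1.79 for slide 1 and -1.85 for slide 2.

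Id2, which is also active in lymphoid and mammary development, read 1.61, 1.46 and 1.37 in GGCT-OE cells, against 2.70, 2.69 and 2.72 in empty cells. The empty arrays were nearly identical, and all GGCT-OE arrays lay under them. The difference was -1.23 ± 0.09 (SE), from means of 1.48 ± 0.12 in GGCT-OE cells and 2.70 ± 0.02 in empty cells (SD, n = 3 each), with a limma adjusted p of 0.000358.

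Id3, which is often expressed with Id1, read 3.42, 3.21 and 2.85 in GGCT-OE cells, against 4.09, 3.92 and 3.68 in empty cells. Here the groups were apart by less, and replicate 3 was the lowest array in each. The difference was -0.74 ± 0.18 (SE), with a 95% interval of -1.17 to -0.30 and a limma adjusted p of 0.0228. The call was lost on leaving out GGCT-OE replicate 2 (-0.76, adjusted p = 0.0610), GGCT-OE replicate 3 (-0.58, 0.0592), empty replicate 1 (-0.64, 0.0611) or empty replicate 2 (-0.73, 0.0725), with the direction kept.

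**Figure D2:**
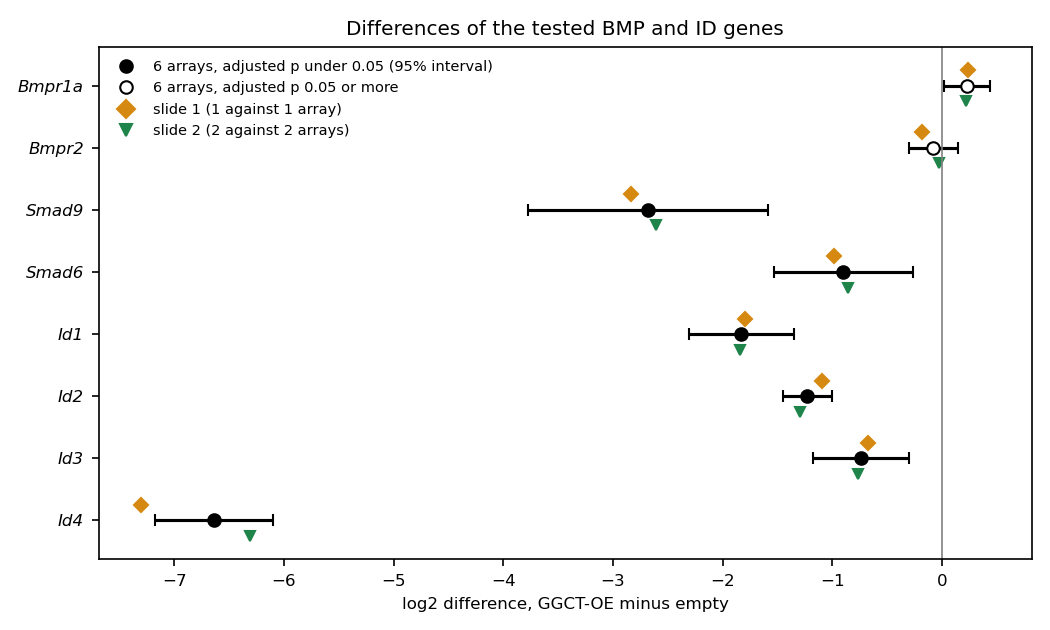
Log2 difference (GGCT-OE minus empty) of the 8 tested genes with its 95% interval over 6 arrays, and the same difference on each slide; filled points had an adjusted p under 0.05. For Id1, Id2, Id3, Id4, Smad6 and Smad9 both slides lie below 0, and for Bmpr1a both lie above it.

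Among the SMADs, Smad9, a receptor-activated SMAD of the BMP branch that is itself a BMP target, read -4.23, -5.53 and -4.55 in GGCT-OE cells, against -1.39, -2.73 and -2.15 in empty cells. It was above background on 1 of 3 GGCT-OE arrays, replicate 1, and on 3 of 3 empty arrays. The difference was -2.68 ± 0.45 (SE, limma adjusted p = 0.00622), at -2.83 on slide 1 and -2.60 on slide 2. Under normexp background correction it was -1.04.

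Smad6, the inhibitory SMAD induced by BMP that blocks the type I receptors' signal, read -1.88, -2.50 and -2.34 in GGCT-OE cells, against -0.89, -1.75 and -1.38 in empty cells. The highest GGCT-OE array was only just under the lowest empty array, although every same-numbered pair moved down. The difference was -0.90 ± 0.26 (SE, limma adjusted p = 0.0401). The call was lost on leaving out GGCT-OE replicate 2 (-0.77, adjusted p = 0.120), GGCT-OE replicate 3 (-0.85, 0.120), empty replicate 1 (-0.68, 0.0771) or empty replicate 3 (-0.92, 0.102).

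The receptors gave small differences. Bmpr1a, a type I receptor, read 2.37, 2.22 and 2.31 in GGCT-OE cells, against 2.13, 2.00 and 2.10 in empty cells on its brighter probe. The groups did not overlap, which held for 25.5% of all genes with GGCT-OE the higher. Its difference of 0.22 ± 0.09 (SE, 95% interval 0.01 to 0.43) had a limma adjusted p of 0.0942, and the adjusted p was 0.0241 when replicate number entered the fit as a block (0.0211 to 0.408 over the alternatives). The dimmer Bmpr1a probe read -2.65, -2.25 and -2.32 in GGCT-OE cells, against -3.14, -2.63 and -2.81 in empty cells, and there the groups overlapped. Its difference was 0.45 ± 0.17 (SE), with a limma adjusted p of 0.0854 over the probes tested.

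Bmpr2, the type II receptor specific to BMP ligands, read 2.09, 2.18 and 2.12 in GGCT-OE cells, against 2.27, 2.28 and 2.08 in empty cells. The groups overlapped, and the difference of -0.08 ± 0.09 (SE) had a 95% interval of -0.30 to 0.14 and a limma adjusted p of 0.550.

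The ligand and the antagonist were at or near background. Bmp4, a ligand of these receptors, read -4.24, -4.71 and -5.03 in GGCT-OE cells, against -3.56, -4.71 and -5.55 in empty cells on one probe, which was above background on 2 GGCT-OE arrays and 1 empty array. Its other probe read -3.94, -4.79 and -5.69 in GGCT-OE cells, against -4.69, -4.30 and -6.80 in empty cells, and was above background on 2 arrays of each group. Both probes overlapped between groups and neither was tested. Grem1, a secreted protein that binds BMP ligands, read -7.38, -7.23 and -6.85 in GGCT-OE cells, against -7.36, -7.15 and -6.83 in empty cells. It was above background on no array, so no difference could be measured.

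Other BMP pathway genes were grouped by role. Over all genes tested the median difference was 0.02, with 17.5% called higher and 17.3% lower. Under the replicate block more of the 23884 genes were called, 6527 higher and 6217 lower, against 4189 and 4121 in the reported fit. The list counts given below for that block are to be read beside those larger totals. Of 13 further BMP and GDF ligands 2 were tested. Gdf5, a growth and differentiation factor known from joint development, rose 3.27-fold, at 0.54 ± 0.17 in GGCT-OE cells and -1.17 ± 0.14 in empty cells (SD, n = 3 each), with a limma adjusted p of 0.000341. Bmp8a, a BMP family ligand, had a difference of 0.17 that did not pass (adjusted p = 0.387). The 11 untested ligands were above background on no array, apart from Bmp10, which was so on 2 GGCT-OE arrays and 1 empty array.

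Of 9 further receptors and co-receptors 7 were tested, of which 2 rose and 2 fell, with a median difference of 0.34. Rgma, a repulsive guidance molecule that acts as a BMP co-receptor, averaged 4.80 ± 0.08 in GGCT-OE cells and 3.37 ± 0.09 in empty cells on its brightest probe, a difference of 1.43 (limma adjusted p = 0.000215), but a second probe gave 0.06 (adjusted p = 0.842). Rgmb, its close relative, rose by 1.22 ± 0.19 (SE, adjusted p = 0.00474). Acvr1, a type I receptor, fell by 0.54 ± 0.09 (SE, adjusted p = 0.00558) on its brightest probe, while a second gave -0.48 (adjusted p = 0.0554), and the call was lost without both arrays of replicate 2 (adjusted p = 0.0675). Eng, the co-receptor endoglin, fell by 0.54 ± 0.15 (SE, adjusted p = 0.0333). The Eng call was lost on leaving out any array other than GGCT-OE replicate 1, with adjusted p up to 0.0994, and its difference was -0.25 under normexp. With the replicate block 4 of this list rose and 2 fell.

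Of the 4 other SMADs of the branch 1 fell and none rose, with a median difference of -0.17. Smad1, a receptor-activated SMAD, averaged 2.65 ± 0.03 in GGCT-OE cells and 3.28 ± 0.02 in empty cells, and fell by 0.63 ± 0.07 (SE, limma adjusted p = 0.00165). Smad5, its close relative, differed by -0.07 ± 0.07 (SE, adjusted p = 0.476). Smad4, the partner of all receptor-activated SMADs, differed by 0.16 ± 0.13 (SE, adjusted p = 0.388), on the one of its probes that the array's design files name alike. Smad7, the inhibitory SMAD shared with the TGF-β branch, differed by -0.27 ± 0.10 (SE, adjusted p = 0.0829), and with the replicate block it passed (adjusted p = 0.0318), giving 2 lower in the list.

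**Figure D3:**
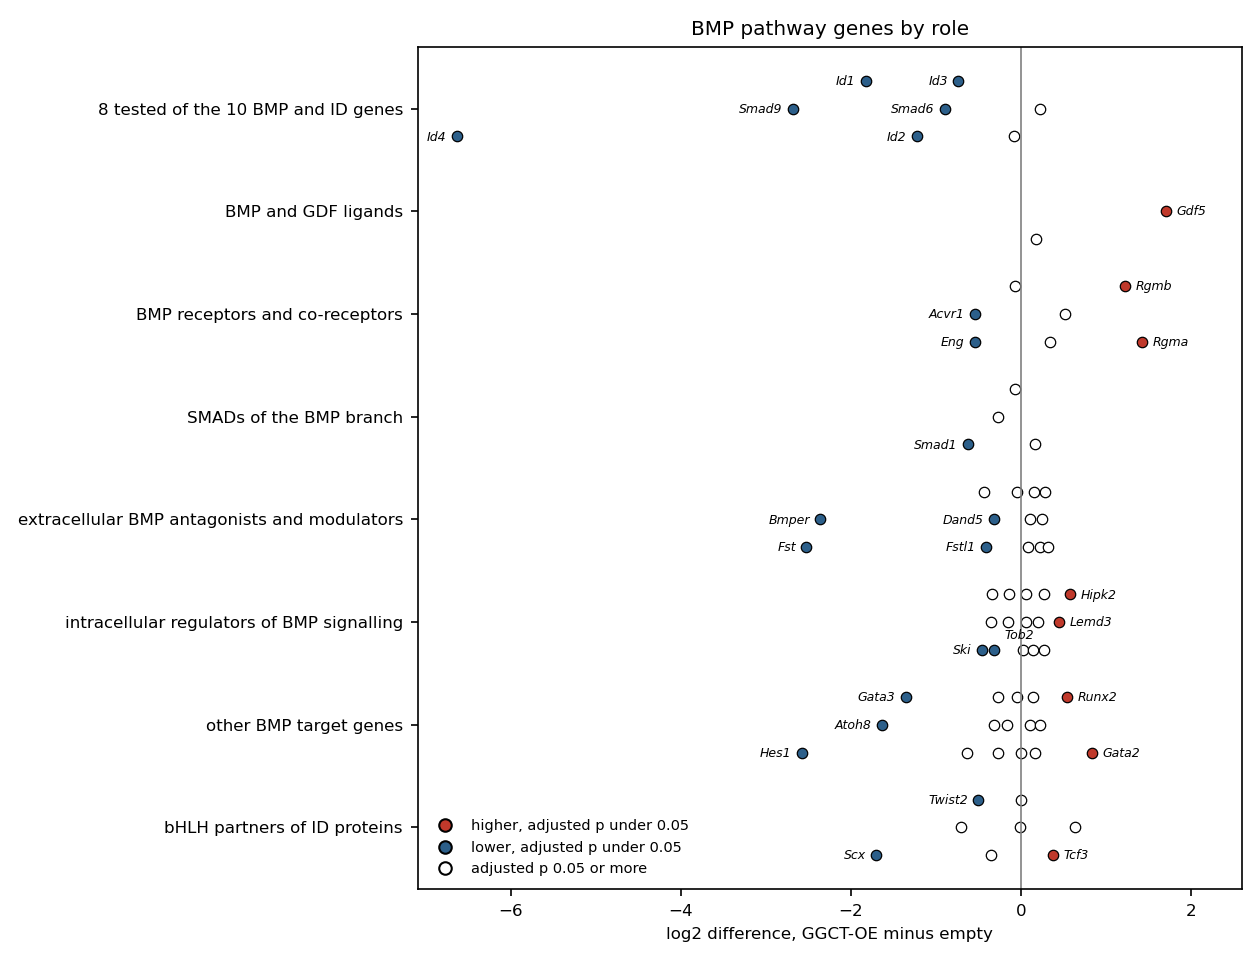
Log2 difference (GGCT-OE minus empty) of each tested gene in the role lists, a point per gene, filled red where higher and filled blue where lower at an adjusted p under 0.05. Below the top row, Hes1 (-2.58), Fst (-2.52) and Bmper (-2.36) lie farthest left, and Gdf5 (1.71) and Rgma (1.43) lie farthest right.

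Of 17 extracellular antagonists and modulators 13 were tested, 4 fell and none rose, with a median difference of 0.08. Bmper, a secreted modulator of BMP activity, fell by 2.36 ± 0.08 (SE), or 5.14-fold, with a limma adjusted p of 2.84e-05. Fst, the secreted activin and BMP binding protein follistatin, fell by 2.52 ± 0.12 (SE, 5.75-fold, adjusted p = 7.49e-05). Its probe cleared background on 2 of 3 GGCT-OE arrays and 3 of 3 empty arrays. Under normexp the Fst difference was -1.06. Dand5, a secreted antagonist, fell by 0.32 ± 0.10 (SE, adjusted p = 0.0483), and Fstl1, a secreted protein related to follistatin, by 0.41 ± 0.13 (SE, adjusted p = 0.0494). A second Fstl1 probe gave -0.33 (adjusted p = 0.0577). The Dand5 call was lost on leaving out any array, and the Fstl1 call on leaving out any array other than empty replicate 2, with adjusted p up to 0.136 and 0.154. With the replicate block 3 of the list rose and 5 fell.

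Of 16 intracellular regulators 15 were tested, 2 rose and 2 fell, with a median difference of 0.05. Hipk2, a nuclear kinase, rose by 0.57 ± 0.08 (SE, limma adjusted p = 0.00294) on its brightest probe, while its other probes gave 0.57 and 0.41 without passing (adjusted p = 0.102 and 0.181), as did the mean of its probes (0.52, adjusted p = 0.0502). Lemd3, an inner nuclear membrane protein that binds SMADs, rose by 0.45 ± 0.11 (SE, adjusted p = 0.0228). Ski, a SMAD corepressor, fell by 0.46 ± 0.10 (SE, adjusted p = 0.0168), and Tob2, of a family that dampens BMP signalling, by 0.32 ± 0.08 (SE, adjusted p = 0.0217). The Lemd3 call was lost on leaving out any array but empty replicate 1, the Tob2 call on leaving out any array, and the Ski call without empty replicate 2 or 3, with adjusted p up to 0.0720, 0.0822 and 0.0741. With the replicate block 4 rose and 4 fell.

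Of 18 other BMP target genes, a list that shares Smad7, Bambi and Nog with the lists above, 16 were tested, 2 rose and 3 fell, with a median difference of -0.11. Atoh8, a bHLH factor induced by BMP in liver and endothelium, averaged -1.06 ± 0.23 in GGCT-OE cells and 0.58 ± 0.03 in empty cells, 3.11-fold lower, with a limma adjusted p of 0.000426. Hes1, a bHLH repressor best known as a Notch target, fell by 2.58 ± 0.27 (SE, 5.99-fold, adjusted p = 0.00113). Its probe cleared background on 2 of 3 GGCT-OE arrays and 3 of 3 empty arrays. Its difference was -1.18 under normexp. Gata3, a lineage transcription factor, fell by 1.35 ± 0.21 (SE, adjusted p = 0.00455), whereas its relative Gata2 rose by 0.83 ± 0.10 (SE, adjusted p = 0.00195). With the replicate block 2 rose and 6 fell.

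Of 20 bHLH factors that ID proteins can bind or oppose, 8 were tested, 1 rose and 2 fell, with a median difference of -0.18. Tcf3, which encodes the E proteins E12 and E47, rose by 0.37 ± 0.08 (SE, limma adjusted p = 0.0157). Twist2, a mesenchymal bHLH factor, fell by 0.50 ± 0.09 (SE, adjusted p = 0.00843). Scx, the tendon factor scleraxis, fell by 1.70 ± 0.44 (SE, adjusted p = 0.0288), and was above background on 1 of 3 GGCT-OE arrays and 3 of 3 empty arrays. The Scx call was lost on leaving out any array but GGCT-OE replicate 1 (adjusted p up to 0.0959), with a difference of -0.66 under normexp, and the Tcf3 call without GGCT-OE replicate 3 or empty replicate 2 or 3 (up to 0.0678). The muscle factors Myod1, Myf5 and Myog were not tested, since none was above background on all arrays of a group. With the replicate block 2 rose and 3 fell.

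Leaving out both arrays of replicate 3 kept the calls of Id1, Id2 and Id4, and among the named genes of the other lists those of Gdf5, Rgma, Bmper, Fst, Atoh8 and Hes1. It ended the calls of Smad9 (-2.82, limma adjusted p = 0.0811), Smad6 (-0.87, 0.242) and Id3 (-0.69, 0.0848), and of every other gene named as called in the lists above (Rgmb, Acvr1, Eng, Smad1, Dand5, Fstl1, Hipk2, Ski, Tob2, Lemd3, Gata2, Gata3, Twist2, Tcf3 and Scx). Their adjusted p then ran from 0.0551 for Gata2 to 0.294 for Fstl1, with their directions kept. This leaves 2 arrays a group. Of those that kept their call, Id4, Fst and Hes1 passed the filter in the reported fit only through the empty arrays.

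**Figure D4:**
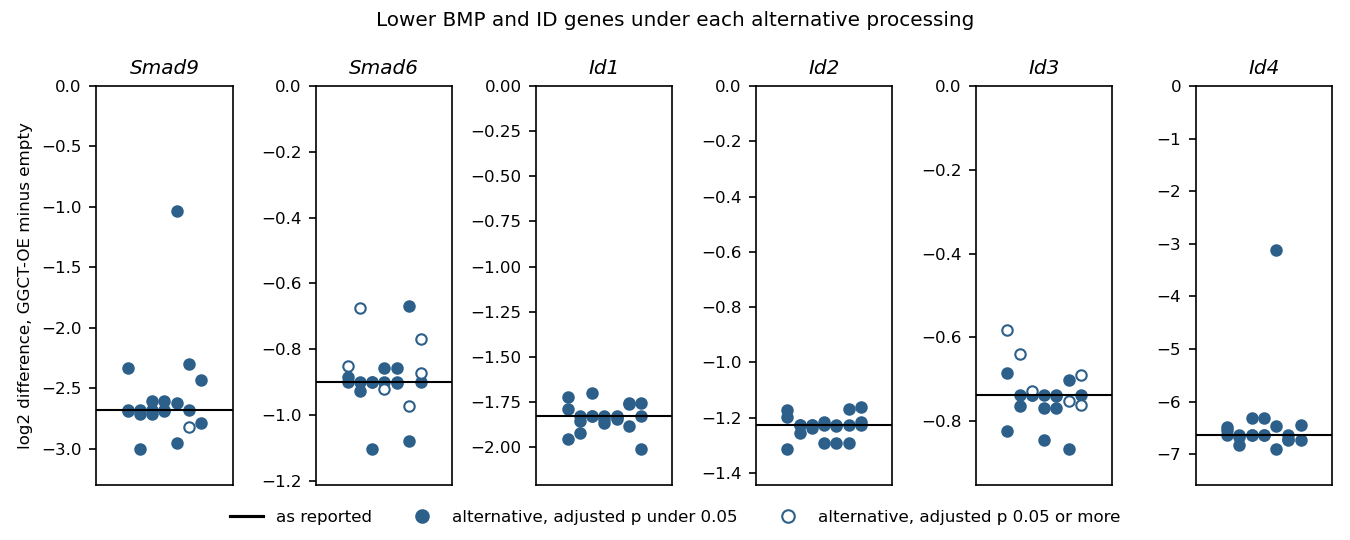
Log2 difference (GGCT-OE minus empty) of the 6 lower genes under each alternative processing or left-out array, a point per alternative, with a line at the reported value; each panel has its own scale and open points had an adjusted p of 0.05 or more. All points lie below 0, and the Id1, Id2 and Id4 panels hold no open point.

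The profile of each ID gene over the 6 arrays was close to that of many other genes. By Pearson correlation over the 6 arrays, which mainly follows the split between the groups and is given as a description, Dusp1 and Metrnl were most like Id1 (r = 0.998 each), and Calcrl and Tspan2 most like Id2 (r = 0.999 each). Copg1 (r = 0.999) and Gm20878 (r = 0.997) were most like Id3, and Tmtc4 and Ces1f (r = 0.999 each) most like Id4. Tspan2, Gm20878 and Ces1f were above background on only 3 of 6 arrays, and Copg1 was not called (-0.28, limma adjusted p = 0.0639). Dusp1, a phosphatase that inactivates MAP kinases, fell by 0.75 and Tmtc4 by 1.28 (limma adjusted p = 0.00343 and 0.000169), and the Dusp1 call was lost without both arrays of replicate 3 (0.0876). Of 14023 named genes 1091 had r above 0.95 with Id1, 1941 with Id2, 360 with Id3 and 1887 with Id4.

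Markers of other cell types that moved with the groups are given beside these results. Of 4 endothelial markers, Cdh5 was above background on 3 of 3 GGCT-OE arrays and 0 of 3 empty arrays, at least 2.18-fold higher, and Pecam1 differed by 0.43 (limma adjusted p = 0.0480), while the defining receptors Kdr and Tek were above background on no array. The summed linear level of the 4 was 0.235 to 0.277 in GGCT-OE cells and 0.136 to 0.174 in empty cells, relative to the 75th percentile. Of 5 epithelial markers Krt8 rose by 1.18 and Krt14 fell by 1.46, with Epcam and Cdh1 above background on no array and sums of 0.290 to 0.407 in GGCT-OE cells and 0.310 to 0.323 in empty cells. Of 5 osteoblast markers Bglap fell by 1.09, of 4 adipocyte markers Lpl fell by 1.12, and of 4 haematopoietic markers Cd68 fell by 0.27. The 1 chondrocyte marker tested did not pass, and no skeletal muscle marker was tested. Of the 10 fibroblast markers 2 rose and 4 fell. The summed levels of GGCT-OE cells also lay below those of empty cells without overlap for the fibroblast list (1632 to 2018 against 2076 to 2504), the adipocyte list (1.28 to 1.45 against 2.80 to 3.09) and the chondrocyte list (at most 2.33 against at least 2.35). They overlapped for the haematopoietic, osteoblast and skeletal muscle lists. The part of these markers in the results was not tested.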

How the data were processed

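Total RNA of 3 GGCT-OE and 3 empty NIH3T3 samples was labelled with Cy3 and hybridised to 1-colour Agilent arrays. The deposited scanner files hold background-subtracted processed intensities, which per the file headers were made with Agilent Feature Extraction 12.1.0.3. For probes with an intensity above 200 (17347 to 18547 per array), the authors' deposited log2 table had a correlation of 1 with log2 intensity. Dimmer probes were left out of that comparison. The table's column medians were -3.87 to -3.69, with no centring over arrays seen. Here 3671 control spots per array and 578 outlier spots in all were left out, each array's 75th percentile of log2 intensity was subtracted, spots of a probe were averaged, and a gene was read by its brightest probe. The two-sided test was limma's moderated fit (version 3.58.1, R 4.3.3) with Benjamini-Hochberg adjustment. The number of arrays limits the precision.

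The 10 genes, the pathway lists and the marker lists were chosen with earlier results of these data known. One listed gene is not reported here, and its list was counted without it. Named were the 10 genes, the 4 other SMADs, up to 4 called genes with the smallest p per list, and the 2 named genes most like each ID gene; Bmp8a, Bmp10, the muscle bHLH factors, Ggct and the markers were added for context. Gene names come from RefSeq accessions through GRCm38.p6, for names only, since the headers name mm9. The 334 probes that 2 versions of the array design name for different genes were left unnamed. Bounds on folds set a dim probe at the lowest signal counted as above background on its array. Same-numbered samples deviated together (correlations of 0.731, 0.453 and 0.358 over genes). Replicates 2 and 3, which share a slide, also correlated across numbers (0.343 and 0.300). The reported fit had no block and so did not use the pairing by replicate number. That number entered as a block only in an alternative. The 21 alternatives included normexp background correction (offset 50), other scalings and filters, array weights, slide and replicate blocks, and leaving out arrays.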

Additional observations from a re-analysis of the deposited data

How the results depend on the processing

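Among the 8 tested genes and the genes named from the lists, none changed direction under the 21 alternatives, of which slide 2 alone and leaving out replicate 1 use the same arrays. Id1 and Id2 passed the threshold in all 21. Id4 passed in all 20 that could test it, but it was above background on 0 of 3 GGCT-OE arrays. Those passes rest on signal in the empty arrays alone. The median difference over all genes was 0.02, and turned to -0.01 with a median shift and -0.02 with normexp. Requiring signal on all 6 arrays left Id4 and Smad9 untested and 4 of the genes lower, and testing without a filter on dim probes also left 4, since Id3 (adjusted p = 0.0774) and Smad6 (0.115) no longer passed. On leaving out arrays, singly or by replicate pair, 3 to 6 of the genes were lower and 0 higher. Bmpr1a made 1 gene higher on averaging the probes of each gene, with array weights, with the replicate block and with the slide as a block; the replicate block changed no other call among the 10 genes. Over all genes, 4189 were higher and 4121 lower. These counts were 2235 and 2502 without the filter, 6673 and 6215 with array weights, 6527 and 6217 with the replicate block, 6600 and 6215 with the slide block, and ranged from 697 to 4599 and from 1089 to 4555 with arrays left out. Over all probes, 5511 were higher and 5431 lower, with 3052 and 3409 without the filter and 8578 and 8104 with array weights. The probe counts were 8521 and 8160 with the replicate block and 8598 and 8163 with the slide block. With arrays left out they ran from 1003 to 6089 and from 1518 to 6043. Signal near background limits Id4, Smad9, Bmp4 and Grem1.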

Other observations

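The genes lying next to the 10 were read too, as the 5 nearest tested named genes on each side. Around Bmp4 on chromosome 14, 8 of 10 neighbours fell and 1 rose in GGCT-OE cells, with a median difference of -0.61, although Bmp4 itself was too near background to be tested. Around the ID genes no such run was seen: 2 of 10 neighbours fell and 3 rose around Id1 (median -0.04), 2 fell and 2 rose around Id2 (0.07), 1 fell and 3 rose around Id3 (0.16), and 3 fell and 0 rose around Id4 (-0.09). Around Smad6 2 fell and 1 rose, around Smad9 3 fell and 2 rose, around Bmpr2 4 fell and 0 rose, around Bmpr1a 1 fell and 0 rose, and around Grem1 3 fell and 1 rose. Among all 14026 named genes tested, 22.0% fell and 17.8% rose.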
